A study of Mus musculus with 15 samples.

Results

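Cyclic AMP is made from ATP by adenylyl cyclases, is broken down by phosphodiesterases, and acts through protein kinase A (PKA), through the Rap exchange factors called Epac, and near A-kinase anchoring proteins (AKAPs) that hold PKA in place. In islet cells it amplifies hormone release, and receptors for incretins, glucagon, adrenaline and somatostatin act on it through stimulatory and inhibitory G proteins. The genes described here are all rows of the deposited expression table whose symbol names an adenylyl cyclase (Adcy), a phosphodiesterase (Pde), a PKA regulatory or catalytic subunit (Prkar, Prkac), an Epac protein (Rapgef3, Rapgef4) or an AKAP named Akap with a number. They comprised 60 of the 38283 rows and 59 symbols, since Pde4d is listed under 2 gene identifiers. There were 10 cyclases, 26 phosphodiesterases, 6 PKA subunits, 2 Epac genes and 16 AKAPs.

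Alpha cells (n = 5) and beta cells (n = 4) were sorted from Glu-Venus mice, in which the proglucagon promoter drives the yellow fluorescent protein Venus. Beta cells were the Venus-negative cells with high scatter and autofluorescence. Whether alpha and beta samples shared animals was not given in the sources used here, and the main fit treats them as independent. Delta cells (n = 6) were sorted from Sst-CreXROSA26EYFP/EYFP mice, in which Cre recombinase under the somatostatin promoter switches on EYFP, so the line of mice and the type of cell changed together between delta cells and the others and cannot be told apart. C57BL/6 was the strain background throughout and no treatment was given. The age of the animals was not given in the sources used here, and each sample was pooled from the islets of 2 to 5 animals, so the spread between samples is one between pools.

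Values are FPKM, in which fragments are divided by the length of the transcript and by the library's mapped reads, so that levels can be compared between genes per length. Cell types were compared on log2(FPKM + 1) with limma, which fits linear models and moderates their variances. A gene was called where the adjusted p-value was under 0.05. The adjustment covered 14405 genes, each with a mean over 1 FPKM in 1 or more of the cell types. Differences on this scale understate the change of low genes. Of the 60 genes, 39 passed that filter and 21 did not: 5 cyclases, 11 phosphodiesterases and 5 AKAPs. A gene that passes only through the cell type in which it is high has to differ, so counts over the 39 are descriptions.

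The hormone genes matched the sort, with Gcg at 184426 to 344947 FPKM in alpha samples, Ins2 at 91248 to 638871 in beta samples and Sst at 101492 to 266276 in delta samples. Hormones of the other types were also present, with Ins2 at 2634 to 9094 FPKM in alpha and 3803 to 7190 in delta samples, Sst at 1139 to 2427 in alpha samples, and Gcg at 236 to 767 in delta samples. In beta samples Gcg was at 166 to 1817 FPKM and Sst at 37.9 to 461, both highest in beta sample 2. Of further genes known for these types, Ucn3 was at 256 to 690.2 FPKM in beta samples and Hhex at 42.1 to 93.2 in delta samples. Ppy, the hormone of a further islet cell type, was at 17728 to 41392 FPKM in alpha samples and at 10857 to 48600 in delta samples, but at no more than 98.1 in beta samples, again with the most in beta sample 2. Summed markers of acinar cells (6 genes) were at 2.06 to 453 FPKM in delta samples, 0.122 to 60.8 in alpha samples and 0.0283 to 9.10 in beta samples, and 4 duct markers reached 159.9, 18.3 and 85.5 FPKM in alpha, beta and delta samples. The part of other cells in the results was not tested. Some samples stood apart from the rest. The FPKM of 84 ribosomal protein genes added up to 65598 to 140965 in 6 samples (alpha 1, alpha 2, alpha 3, beta 2, delta 1 and delta 2), against 7912 to 38762 in the other 9. These sets are called the high and the low ribosomal set. They do not differ in ribosomal protein genes alone. FPKM summed over all rows was 1.25e+07 to 2.63e+07 in the high set and 2.82e+06 to 4.67e+06 in the low set. Levels are thus compared across samples whose sums differ. Read depth could be read from the values of 5 samples and lay between 7.45 M and 30.7 M reads, and in the other 10 it is unknown, so no limit of detection is given and a value of 0 is described as listed at 0.

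Across the 3 cell types 11 of the 39 tested genes were called in an F-test (28.2%), beside 16.0% of all genes tested. Beta against alpha cells called 5 (12.8%, beside 7.66% of all genes), of which 4 were higher and 1 lower in beta cells (beside 2.84% and 4.82% of all genes). Delta against alpha cells called 3 (7.69%, beside 6.81%), all higher in delta cells (beside 5.33% of all genes higher and 1.48% lower). Delta against beta cells called 8 (20.5%, beside 14.7%), of which 5 were higher and 3 lower in delta cells (beside 11.7% and 2.99%). The samples of the groups did not overlap for 6, 5 and 9 of the 39 genes in these comparisons (beside 8.12%, 6.64% and 14.9% of all genes). Beta samples stood wholly above alpha samples for 3 genes and below for 3 (beside 3.05% and 5.07%). Delta samples stood above alpha samples for 3 and below for 2 (4.97% and 1.67%), and above beta samples for 6 and below for 3 (12.3% and 2.62%). The median difference over the 39 genes was -0.02, 0.20 and 0.09 in that order, beside -0.13, 0.13 and 0.30 over all genes tested. The balance of directions moved with the settings. In the low ribosomal set alone, beta against alpha cells called 1 higher and 3 lower, delta against alpha cells 4 higher and 1 lower, and delta against beta cells 9 higher and 1 lower. With quantile normalization, delta against alpha cells called 3 higher and 3 lower, and with median-ratio size factors 3 higher and 1 lower. The 3 comparisons share samples, so that their counts are not independent. In two-sided exact permutation tests of single genes, 15 of the 16 called differences had the smallest p the design allows, and that of Prkar2b had p = 0.0476. Genes that limma did not call reached the smallest p as well: Akap12 and Pde1a for beta against alpha, Pde8a and Pde8b for delta against alpha and Pde4a for delta against beta cells. Akap12, Pde1a and Pde8b passed the filter only through alpha cells and Pde4a only through delta cells, where they are high. Their p-values are thus descriptions. In all 8, 14 and 12 of the 39 genes had an unadjusted exact p under 0.05 (beside 15.2%, 17.1% and 26.9% of all genes).

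**Figure D1:**
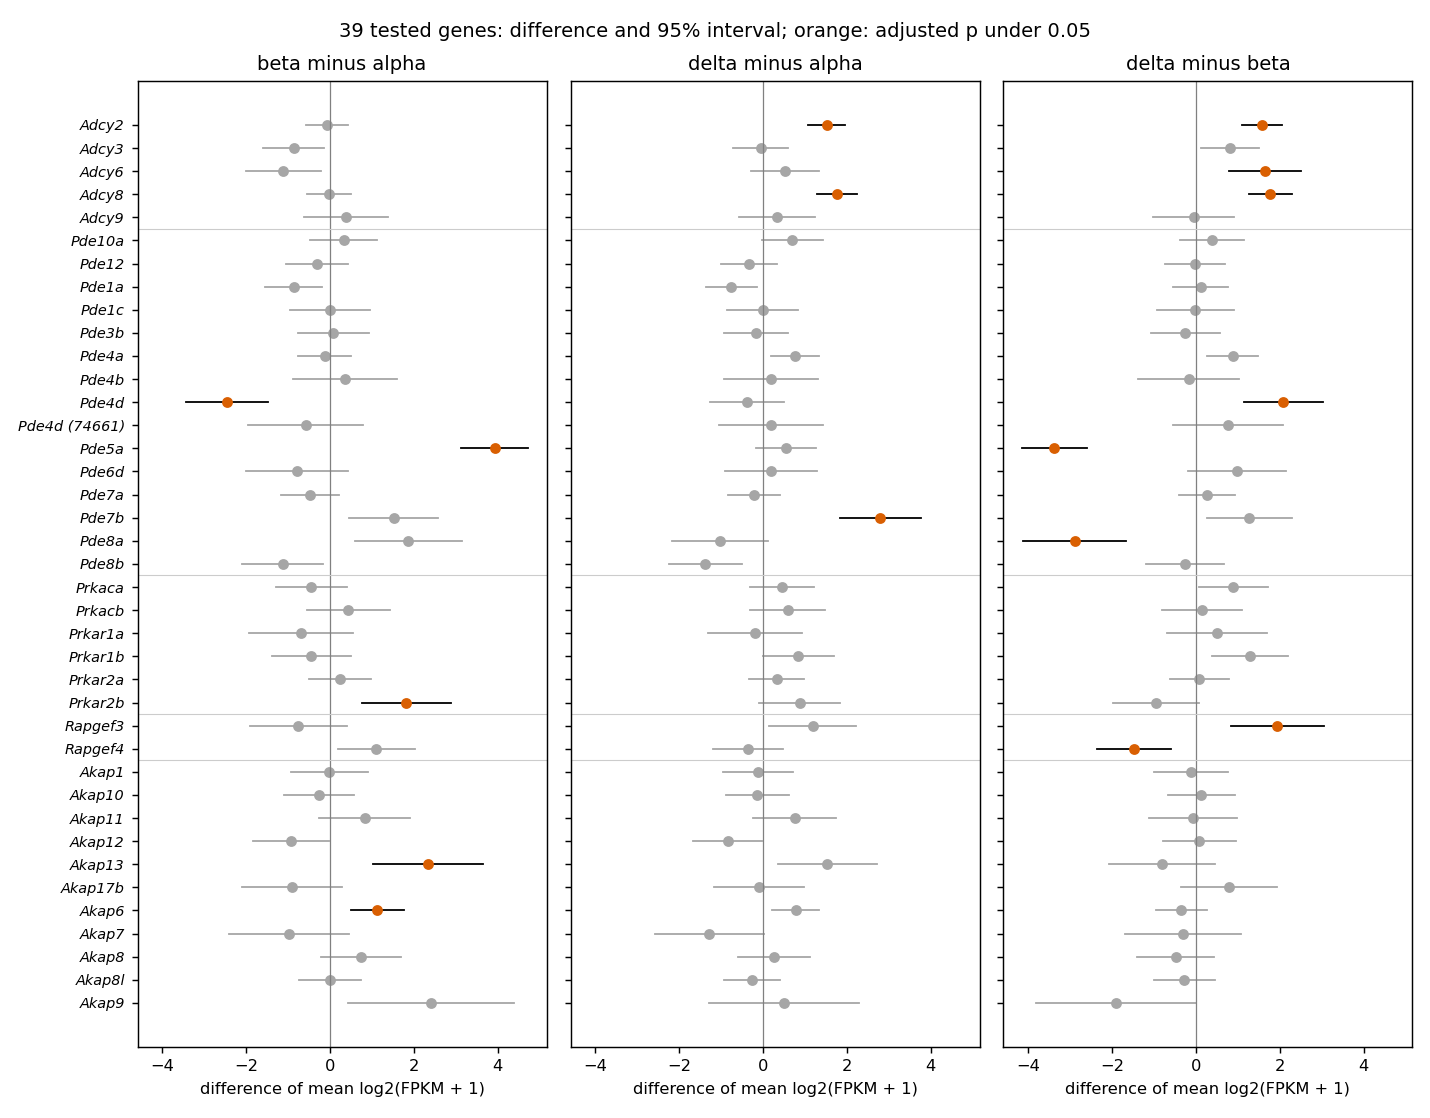
Difference of mean log2(FPKM + 1) for the 39 tested genes, with its 95% interval, in beta minus alpha, delta minus alpha and delta minus beta cells. Genes are ordered as cyclases, phosphodiesterases, PKA subunits, Epac genes and AKAPs. Orange points mark the 5, 3 and 8 genes with an adjusted p under 0.05, and for most other genes the interval includes 0.

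Promoter sequences of 3 genes called between cell types, and of Prkar1a, are given first. They are the RefSeq promoters of build GRCm38.p6, from 250 bases before to 50 bases after a transcript start, 5′ to 3′ on the gene's own strand. Capitals mark the cyclic AMP response element, either as its whole palindrome TGACGTCA or as its short form TGACG. Both strands were searched, and the palindrome contains the short form. Pde5a and Pde8a had their highest mean in beta cells and Adcy2 in delta cells. Prkar1a had the highest mean of the group in each cell type, in beta cells only with beta sample 2 included.
Pde5a, chr3:122728908-122729207, plus strand: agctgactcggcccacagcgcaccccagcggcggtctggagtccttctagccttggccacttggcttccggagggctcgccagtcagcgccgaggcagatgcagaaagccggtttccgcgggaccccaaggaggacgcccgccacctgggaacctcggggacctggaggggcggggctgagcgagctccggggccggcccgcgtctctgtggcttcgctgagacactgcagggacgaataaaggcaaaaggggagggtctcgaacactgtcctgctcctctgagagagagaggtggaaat
Pde8a, chr7:81213015-81213314, plus strand: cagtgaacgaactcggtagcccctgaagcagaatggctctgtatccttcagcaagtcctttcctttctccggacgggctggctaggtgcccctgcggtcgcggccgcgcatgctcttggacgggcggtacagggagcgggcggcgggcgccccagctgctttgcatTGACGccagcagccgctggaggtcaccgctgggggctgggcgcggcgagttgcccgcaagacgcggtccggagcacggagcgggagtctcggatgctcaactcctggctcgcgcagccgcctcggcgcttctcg
Adcy2, chr13:68999492-68999791, minus strand: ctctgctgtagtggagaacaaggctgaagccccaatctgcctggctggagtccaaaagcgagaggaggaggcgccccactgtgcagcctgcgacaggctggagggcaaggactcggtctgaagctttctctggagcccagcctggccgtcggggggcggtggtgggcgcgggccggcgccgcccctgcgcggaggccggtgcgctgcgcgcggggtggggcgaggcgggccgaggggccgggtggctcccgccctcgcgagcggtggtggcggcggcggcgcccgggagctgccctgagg
Prkar1a, chr11:109650699-109650998, plus strand: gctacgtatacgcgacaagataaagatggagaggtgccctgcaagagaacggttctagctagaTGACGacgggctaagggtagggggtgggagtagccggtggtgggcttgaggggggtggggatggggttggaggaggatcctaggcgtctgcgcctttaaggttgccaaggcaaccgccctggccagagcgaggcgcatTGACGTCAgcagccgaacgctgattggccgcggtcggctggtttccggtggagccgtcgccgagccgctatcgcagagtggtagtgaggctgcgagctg
The Pde5a and Adcy2 windows held neither form, and the Pde8a window held TGACG once, 84 bases before the start. The Prkar1a window held TGACG 187 bases before the start as well as the palindrome. That window was chosen among the entries of Prkar1a because it holds the palindrome before the start, so the palindrome there is not a finding. Of the 59 symbols 48 had a promoter entry. Among these, 1 symbol (Prkar1a) held the palindrome and 17 held TGACG on either strand. Of all 32851 promoters, 1.79% held the palindrome and 20.8% held TGACG. Of the 90 promoters of the described genes, 2.22% and 21.1% did so. A match is a description of the letters and not a site of binding.

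Adcy2, Adcy8 and Adcy6 were the cyclases called in the F-test, 3 of the 5 that passed the filter (beside 16.0% of all genes). Adcy2 and Adcy8 passed the filter only through delta cells, where they are high, so this count and the tests of both genes are descriptions. All 3 were higher in delta than in beta cells, and Adcy2 and Adcy8 were also higher in delta than in alpha cells. In pooled sorted cells, fewer cells that express a gene and less RNA of it per cell cannot be told apart. No cyclase was called between beta and alpha cells in limma, where 2 of the 5 had an unadjusted p under 0.05 (beside 22.9% of all genes).

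Adcy2 (ENSMUSG00000021536, chr13:68620043-68999541 in GRCm38) encodes a calcium-insensitive cyclase that G protein βγ subunits can stimulate. It was at 0.0213, 0.126, 0, 0.0106 and 0.129 FPKM in alpha samples 1 to 5 and at 0, 0.0327, 0 and 0 in beta samples 1 to 4. Its lowest, median and highest values in delta samples were 1.56, 2.16 and 2.53 FPKM. Every delta sample was more than 1 FPKM above every alpha and beta sample. The difference was 1.52 (SE 0.21) on the log2(FPKM + 1) scale against alpha cells (limma, adjusted p = 1.78e-04) and 1.59 (SE 0.23) against beta cells (adjusted p = 1.82e-04).

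Adcy8 (ENSMUSG00000022376, chr15:64697084-64922296) encodes a cyclase that calcium and calmodulin stimulate. In alpha samples 1 to 5 it was at 0, 0, 0.0219, 0 and 0.0894 FPKM, and in beta samples 1 to 4 at 0, 0.0215, 0 and 0.00400. Delta samples had a lowest value of 1.44, a median of 2.66 and a highest of 3.36 FPKM. The groups did not overlap, and the difference was 1.76 (SE 0.22) against alpha cells (limma, adjusted p = 7.29e-05) and 1.78 (SE 0.24) against beta cells (adjusted p = 1.04e-04). Both calls of both genes were kept in the 9 samples of the low ribosomal set, with differences of 1.62 to 1.88.

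Adcy6 (ENSMUSG00000022994, chr15:98589973-98610076) encodes a cyclase that calcium inhibits, and its transcript led the cyclases in alpha and in delta cells. It was at 4.00, 4.21, 1.60, 7.27 and 13.4 FPKM in alpha samples and at 1.66, 2.38, 1.73 and 1.46 in beta samples. In delta samples it ran from 4.50 over a median of 7.17 to 13.8 FPKM. All delta samples were above all beta samples, while alpha samples overlapped both. The mean in delta cells, 8.17 ± 3.16 FPKM (SD, n = 6), was 4.52 times that in beta cells, 1.81 ± 0.400 (n = 4), and the difference was 1.65 (SE 0.41; limma, adjusted p = 0.0116). Beta minus alpha cells was -1.11, with an interval from -2.01 to -0.22 (adjusted p = 0.123), and in the low ribosomal set alone this was -2.06 (adjusted p = 0.00661).

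Adcy9 (a widely expressed cyclase that forskolin stimulates poorly) had the highest cyclase level in beta cells. Its values were 3.20, 1.37, 0.395, 3.86 and 5.34 FPKM in alpha samples, 2.73, 9.50, 1.99 and 2.15 in beta samples, and 1.39 to 5.24 with a median of 3.43 in delta samples. These overlapped throughout, and the intervals of the 3 differences all included 0, the widest from -0.63 to 1.39 for beta minus alpha cells. Adcy3, a calcium-modulated cyclase known from olfactory cilia, was at 0.858, 0.365, 2.33, 0.875 and 1.96 FPKM in alpha samples and at 0.331 to 2.03 in delta samples, against 0.122, 0, 0.750 and 0.0136 in beta samples. It was not called (limma, adjusted p = 0.141 for beta against alpha and 0.114 for delta against beta cells). With a pseudocount of 0.1 both were called, at -2.44 (adjusted p = 0.0435) and 2.38 (adjusted p = 0.0296).

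**Figure D2:**
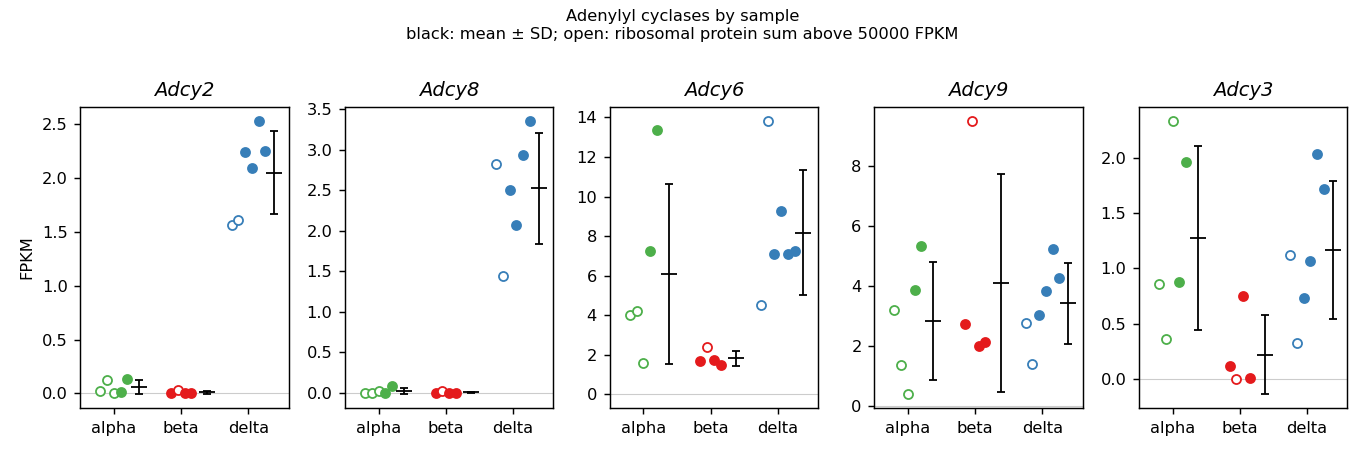
FPKM of the 5 cyclases that passed the filter, 1 panel a gene, with 1 point a sample for alpha, beta and delta cells. Black marks give the mean ± SD and open points the samples of the high ribosomal set. Adcy2 and Adcy8 stand above 1 FPKM in every delta sample and below 0.13 FPKM in every alpha and beta sample.

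As a share of all cyclase FPKM in a sample, which does not depend on the scaling between samples, Adcy6 took 51.3 ± 11.4% (SD, n = 5) in alpha cells, 33.6 ± 9.3% (n = 4) in beta cells and 44.9 ± 15.4% (n = 6) in delta cells. Adcy9 took 23.3 ± 9.6%, 60.4 ± 14.4% and 18.8 ± 6.0% in that order. Adcy2 and Adcy8 took 11.4 ± 1.7% and 14.3 ± 4.6% in delta cells and each took under 1% in the other cells. The summed cyclase level was 11.3 ± 7.04 FPKM in alpha, 6.17 ± 3.87 in beta and 18.1 ± 2.74 in delta cells. Of the 5 cyclases that did not pass, Adcy4 was listed at 0 in all 15 samples and Adcy1 in all 4 beta samples. The highest mean among them was 0.683 FPKM, of Adcy5 in alpha cells, or 0.608 FPKM, of Adcy5 in delta cells, without alpha sample 4.

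In each of the 3 comparisons the largest difference among the 39 genes was that of a phosphodiesterase, Pde5a against beta cells or Pde7b between delta and alpha cells. With a pseudocount of 0.1 the largest was that of the cyclase Adcy8 for delta against alpha cells (4.42, beside 4.23 for Pde7b) and for delta against beta cells (4.58, beside -3.92 for Pde5a). Pde5a, which hydrolyses cyclic GMP, was higher in beta cells than in both other cell types, and Pde8a, an enzyme with high affinity for cyclic AMP, was higher in beta than in delta cells. For Pde7b, also specific for cyclic AMP, delta cells exceeded alpha cells, and the row of Pde4d with a gene model was lower in beta cells than in both others. Of the 15 tested, these 4 were called in the F-test and the other 11 were not (beside 16.0% of all genes called).

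Pde5a (ENSMUSG00000053965, chr3:122728947-122859374), the target of sildenafil, was at 0.633, 0.731, 1.40, 0.561 and 1.40 FPKM in alpha samples. In beta samples it was at 29.2, 38.8, 11.7 and 45.5 FPKM, and in delta samples its lowest, median and highest values were 0.840, 1.90 and 2.84. The lowest beta sample was thus above every other sample. The mean in beta cells was 33.1 times that in alpha cells and 16.5 times that in delta cells. The difference was 3.92 (SE 0.38) against alpha cells (limma, adjusted p = 5.32e-06), and delta minus beta cells was -3.37 (SE 0.36; adjusted p = 1.17e-05). In the low ribosomal set these were 3.75 and -3.02, both called.

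Pde8a (ENSMUSG00000025584, chr7:81213596-81334533) was at 8.33, 5.29, 7.78, 5.30 and 7.19 FPKM in alpha samples and at 13.3, 79.8, 5.57 and 79.5 in beta samples. Delta samples ran from 1.96 over a median of 2.39 to 4.31 FPKM. Beta samples 2 and 4 were far above beta samples 1 and 3, and beta sample 3 lay within the alpha range. All delta samples were below all alpha and all beta samples. Delta minus beta cells was -2.89 (SE 0.58; limma, adjusted p = 0.00303) and fell to -2.26 in the low ribosomal set, where it was not called (adjusted p = 0.0577). Beta minus alpha cells was 1.87 (interval 0.59 to 3.14; adjusted p = 0.0723), and was called with median-ratio size factors (2.08, adjusted p = 0.00440) and with quantile normalization (1.90, adjusted p = 0.00514).

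Pde7b (ENSMUSG00000019990, chr10:20398004-20725078) was at 0.775, 0.725, 0.0385, 0.149 and 1.54 FPKM in alpha samples and at 2.68, 10.5, 0.581 and 5.04 in beta samples. In delta samples its lowest, median and highest values were 3.85, 11.3 and 13.9 FPKM. All delta samples were above all alpha samples, and beta samples overlapped both groups. The delta mean, 10.6 ± 3.68 FPKM (SD, n = 6), was 16.4 times the alpha mean of 0.645 ± 0.598 (n = 5), or 25.0 times without alpha sample 5, with a difference of 2.80 (SE 0.45; limma, adjusted p = 6.99e-04). Beta minus alpha cells was 1.52 (interval 0.46 to 2.58; adjusted p = 0.0770), called with median-ratio size factors at an adjusted p of 0.0143 and with quantile normalization at 0.0158. Delta minus beta cells was 1.28 (interval 0.26 to 2.30, limma, adjusted p = 0.0889). It was called in the low ribosomal set (1.99, adjusted p = 0.0181) and with quantile normalization (1.09, 0.0499). The call was also made without beta sample 2 (1.73, 0.0174) and without delta sample 2 (1.51, 0.0429).

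Pde4d, whose long and short isoforms degrade cyclic AMP and are tethered by partner proteins, is listed on 2 rows between which reads may have been split, so its level is uncertain. The row ENSMUSG00000021699 (chr13:108449948-109953461) was at 17.3, 5.54, 1.70, 9.48 and 12.3 FPKM in alpha samples and at 0.534, 0.330, 0.798 and 0.594 in beta samples. Delta samples ran from 2.91 over a median of 5.97 to 8.12 FPKM. Every beta sample was below every alpha and delta sample. Beta minus alpha cells was -2.45 (SE 0.46; limma, adjusted p = 0.00329), and delta minus beta cells was 2.09 (SE 0.44; adjusted p = 0.00453). The row ENSMUSG00000074661, which has no gene model in GENCODE M21, was at 0.544, 2.45, 0.692 and 11.5 FPKM in beta samples, at 0.954 to 11.6 in alpha samples and at 1.62 to 7.75 in delta samples. These overlapped, and it was not called for beta against alpha or delta against beta cells (limma, adjusted p = 0.632 and 0.460).

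Pde3b, the insulin-activated enzyme that hydrolyses cyclic AMP and is inhibited by cyclic GMP, had the highest mean phosphodiesterase level in alpha and delta cells, and Pde8a in beta cells. Pde3b was at 17.9, 25.7, 13.4, 33.5 and 36.0 FPKM in alpha samples, at 17.1, 26.5, 26.7 and 33.0 in beta samples, and at 12.4 to 34.4 in delta samples with a median of 23.3. The samples overlapped and the interval of the difference ran from -0.76 to 0.93 for beta minus alpha cells and from -0.93 to 0.60 for delta minus alpha cells.

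**Figure D3:**
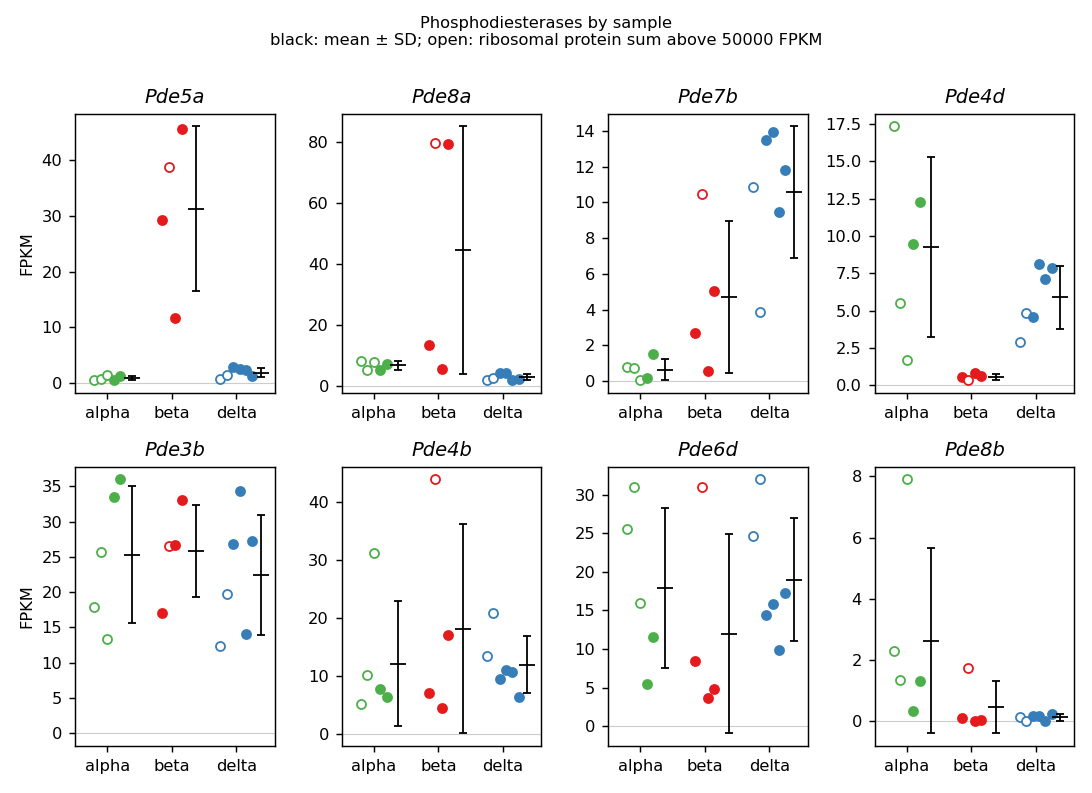
FPKM of 8 phosphodiesterase genes by sample, with Pde4d shown for the row ENSMUSG00000021699. Points are samples, black marks the mean ± SD, and open points the high ribosomal set. The 4 beta samples of Pde5a lie between 11.7 and 45.5 FPKM, above every alpha and delta sample, whereas the 4 beta samples of Pde8a spread from 5.57 to 79.8 FPKM.

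Grouped by substrate, the enzymes specific for cyclic AMP (Pde4, Pde7 and Pde8) made up 54.5 ± 11.9% (SD, n = 5) of the FPKM of catalytic phosphodiesterases in alpha cells, 45.8 ± 19.1% (n = 4) in beta cells and 56.1 ± 5.2% (n = 6) in delta cells. Those specific for cyclic GMP (Pde5a, Pde6a, Pde6b, Pde6c and Pde9a) made up 2.9 ± 2.0% in alpha, 24.9 ± 8.7% in beta and 3.9 ± 0.8% in delta cells. Enzymes that hydrolyse both nucleotides took the remaining 42.5 ± 13.8%, 29.3 ± 17.2% and 40.0 ± 5.7%. Pde12, Pde6d, Pde6g and Pde6h are left out of these shares, because they are not themselves cyclic nucleotide hydrolases. Within all 26 rows, Pde5a took 22.7 ± 7.7% and Pde8a 23.8 ± 13.5% in beta cells, against 1.0 ± 0.4% and 7.3 ± 1.5% in alpha cells and 2.0 ± 0.9% and 3.1 ± 0.8% in delta cells. The 11 rows that did not pass the filter had means of at most 0.99 FPKM, the highest that of Pde6b in alpha cells, or that of Pde3a in delta cells (0.794 FPKM) without alpha sample 3. The identifier of Pde2a, which was listed at 0 in all beta samples, is annotated in GENCODE M21 as a readthrough over Arap1 and Pde2a, so that its value is uncertain.

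The PKA subunits held the most abundant transcripts of the group. The regulatory subunit Prkar1a had the highest mean of all 60 rows in each cell type and the catalytic subunit Prkacb the second highest. In beta cells that order rested on beta sample 2. Over the other 3 beta samples the means were 83.6 FPKM for Akap9, 72.5 for Rapgef4, 67.4 for Prkacb and 67.1 for Prkar1a. Of the 6 subunits, only Prkar2b was called, higher in beta than in alpha cells. In the F-test this is 16.7%, near the 16.0% of all genes. The 6 together came to 274 ± 81.6 FPKM in alpha, 278 ± 231 in beta and 303 ± 65.7 in delta cells, and without beta sample 2 the sum in beta cells was 169 ± 90.1.

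Prkar2b (ENSMUSG00000002997, chr12:31958476-32061296) encodes RIIβ, the regulatory subunit that prevails in neural and endocrine tissue and binds AKAPs tightly. It was at 3.24, 3.22, 1.64, 1.35 and 1.80 FPKM in alpha samples and at 7.55, 29.7, 3.00 and 13.6 in beta samples. Delta samples ran from 1.82 over a median of 5.30 to 7.90 FPKM. Beta sample 3 fell within the alpha range, so the groups overlapped. Beta minus alpha cells was 1.82 (SE 0.50; limma, adjusted p = 0.0357; two-sided exact permutation p = 0.0476 for this gene alone). The call was lost in 11 of 27 alternative settings: without any filter, in fits of only the 2 cell types, in the low ribosomal set, with the replicate number as a block, and on leaving out any of alpha samples 2 to 5 or beta samples 1, 2 or 4. Without beta sample 2 the difference was 1.33 (adjusted p = 0.0703), and without beta sample 4 it was 1.69 (adjusted p = 0.110).

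Prkar1a, which encodes the RIα subunit and is the ubiquitous brake on PKA activity, was at 154, 277, 209, 78.4 and 124 FPKM in alpha samples and at 54.2, 348, 39.4 and 108 in beta samples. Its delta samples ran from 65.9 over a median of 152 to 192 FPKM. The interval for beta minus alpha cells, -1.93 to 0.54, allowed a change in either direction. Prkar1b, the RIβ subunit known from neurons, was at 9.28 to 34.3 FPKM in alpha samples, at 5.33 to 25.3 in beta samples and at 18.5 to 37.0 in delta samples. Delta minus beta cells was 1.29 (interval 0.39 to 2.19; limma, adjusted p = 0.0525) and was called in 8 of 26 alternative fits, among them without beta sample 2 (1.66, adjusted p = 0.0102), in the low ribosomal set (1.72, adjusted p = 0.0277), with quantile normalization (1.18, adjusted p = 0.0164) and with size factors (0.91, adjusted p = 0.0378). Prkar2a, which encodes RIIα, lay between 1.83 and 6.23 FPKM in every sample.

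The catalytic subunit Prkacb was at 66.4, 54.8, 57.8, 31.9 and 74.0 FPKM in alpha samples, at 47.4, 156, 34.8 and 119.9 in beta samples and at 55.7 to 116 in delta samples. Prkaca was at 19.1, 23.6, 19.6, 26.9 and 38.97 FPKM in alpha samples, at 13.3, 41.5, 17.3 and 10.6 in beta samples and at 20.8 to 42.6 in delta samples. Neither was called, and the interval for delta minus beta cells ran from -0.79 to 1.10 for Prkacb and from 0.08 to 1.72 for Prkaca. For Prkaca this difference was 0.90 (limma, adjusted p = 0.137), and it was called in the low ribosomal set (1.41, adjusted p = 0.0103) and without beta sample 2 (1.29, adjusted p = 0.0156). The catalytic subunits made up 31.8 ± 8.5% of PKA FPKM in alpha, 44.4 ± 8.2% in beta and 40.5 ± 7.0% in delta cells. Among regulatory subunits, Prkar2b took 1.2 ± 0.4% in alpha, 8.4 ± 2.1% in beta and 2.8 ± 0.9% in delta cells, and Prkar1a 86.9 ± 7.6%, 79.1 ± 4.5% and 77.7 ± 6.7%.

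The pair of Epac genes moved in opposite directions between beta and delta cells. Rapgef4 (ENSMUSG00000049044, chr2:71981240-72257474), which encodes Epac2, the form that binds the exocytosis machinery of beta cells, was at 33.5, 36.3, 13.3, 32.3 and 58.4 FPKM in alpha samples and at 43.5, 90.6, 44.5 and 129.6 in beta samples. In delta samples its lowest, median and highest values were 19.8, 24.3 and 29.5 FPKM. All delta samples were below all beta samples, and delta minus beta cells was -1.47 (SE 0.42; limma, adjusted p = 0.0260). This call was lost without beta sample 4 (-1.17, adjusted p = 0.107), without delta sample 1 (-1.41, adjusted p = 0.0558) and in the low ribosomal set (-1.24, adjusted p = 0.0741), and the F-test over the 3 cell types did not call the gene (adjusted p = 0.0546).

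Rapgef3 (ENSMUSG00000022469, chr15:97744770-97767972), which encodes Epac1, was at 0.521, 6.08, 0, 0.901 and 0.178 FPKM in alpha samples and at 0.185, 0.254, 0 and 0.0479 in beta samples. Delta samples ran from 0.439 over a median of 3.84 to 7.64 FPKM, all above the beta samples. Alpha sample 2 was the only alpha sample above 1 FPKM. Delta minus beta cells was 1.95 (SE 0.53; limma, adjusted p = 0.0200), and the call was lost without a filter (adjusted p = 0.0689), with the replicate number as a block (0.0795) and without beta sample 4 (0.0550). Delta minus alpha cells was 1.19 (adjusted p = 0.211), and 1.66 without alpha sample 2 (adjusted p = 0.0235). Its exons overlap those of 2 antisense genes, and the library kit did not keep the strand, so reads of these genes cannot be told apart. The same limit holds for Rapgef4 (Rapgef4os2), Adcy2 (Gm35161), Adcy3 (Cenpo), Adcy6 (Gm29331), Pde3a (Gm28523), Pde5a (4930447N08Rik), Pde8b (Gm48420), Akap7 (Gm40617) and Akap9 (Cyp51). It also holds for Pde7a (Gm16093), Pde12 (Arf4), Akap14 (Nkap), Pde6h (Arhgdib) and Pde9a (AC166172.5 and AC166172.6). Each of these shares exon sequence with the gene in brackets on the opposite strand. On its own strand Prkar1b shares some with Gm15672, Pde12 with Mir7672 and Akap2 with Pakap. Rapgef4 made up 96.2 ± 6.0% of Epac FPKM in alpha, 99.8 ± 0.2% in beta and 86.5 ± 8.7% in delta cells.

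**Figure D4:**
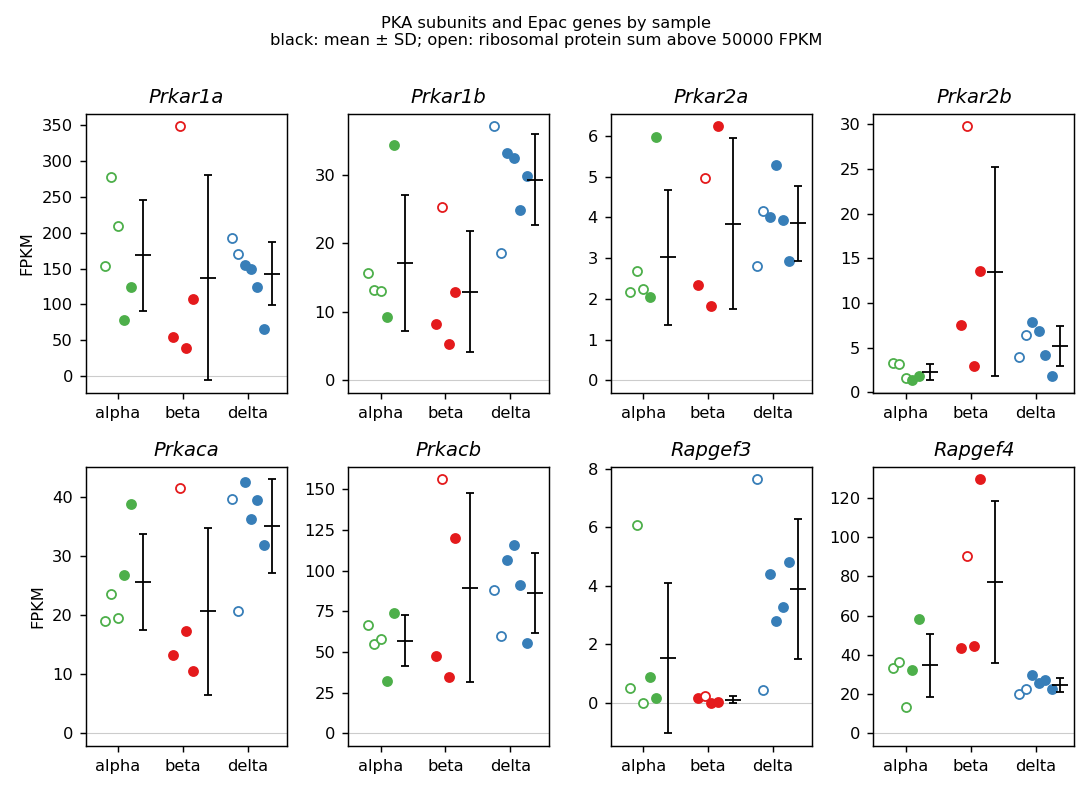
FPKM of the 6 PKA subunits and the 2 Epac genes by sample, with the mean ± SD in black and the high ribosomal set as open points. Beta sample 2, an open point, is the highest beta sample for Prkar1a, Prkar1b, Prkar2b, Prkaca and Prkacb, and for Rapgef4 the 6 delta samples lie within 19.8 to 29.5 FPKM, below the 4 beta samples.

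Of the 11 AKAPs that passed the filter, Akap6 and Akap13 were called, both higher in beta than in alpha cells (18.2%, beside 7.66% of all genes in that comparison and 16.0% in the F-test). None was called in the other comparisons in limma, where 3 had an unadjusted p under 0.05 for delta against alpha and 1 for delta against beta cells (beside 16.7% and 28.4% of all genes). Akap6 (ENSMUSG00000061603, chr12:52699383-53155599) encodes the nuclear envelope anchor mAKAP. It was at 0.00944, 0.0123, 0, 0.0407 and 0.00738 FPKM in alpha samples and at 1.47, 1.08, 0.787 and 1.61 in beta samples, and its delta samples ran from 0.0374 over a median of 0.966 to 1.34 FPKM. Every beta sample was above every alpha sample, and the difference was 1.13 (SE 0.30; limma, adjusted p = 0.0307). It passed the filter only through beta cells. The call was lost in the low ribosomal set (1.14, adjusted p = 0.0550) and without alpha samples 1 or 2 or beta samples 1 or 4 (1.05 to 1.13, adjusted p up to 0.0967). Between delta and alpha cells Akap6 was called with a pseudocount of 0.1 (2.64, adjusted p = 0.0164) and without delta sample 2 (0.93, adjusted p = 0.0330), and between delta and beta cells with quantile normalization (-0.87, adjusted p = 0.0164).

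Akap12, which encodes the anchor gravin, passed the filter only through alpha cells. It was at 0.223, 0.141, 0.0827, 2.27 and 4.51 FPKM in alpha samples, at 0 to 0.0554 in beta samples and at 0 to 0.165 in delta samples. Alpha samples 4 and 5, the low-set ones, were thus far above the other alpha samples. Beta minus alpha cells was -0.92 and delta minus alpha cells -0.84 (limma, adjusted p = 0.210 and 0.276). In the low ribosomal set these were -2.07 and -1.95, and both were called (adjusted p = 0.00637 and 0.00734).

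Akap13 (ENSMUSG00000066406, chr7:75455534-75754609) encodes AKAP-Lbc, an anchoring protein for PKA. Its values were 5.98, 0.483, 1.80, 7.26 and 8.75 FPKM in alpha samples and 19.7, 21.8, 10.6 and 57.6 in beta samples, and delta samples ran from 4.61 over a median of 12.9 to 23.8 FPKM. Beta samples were all above alpha samples, and the difference was 2.34 (SE 0.62; limma, adjusted p = 0.0303). In the low ribosomal set it was 1.43 (adjusted p = 0.198). It was also not called without a filter (adjusted p = 0.0998), in a fit of only the 2 cell types (0.121), or without alpha samples 2 (0.0707) or 3 (0.0623) or beta samples 1 (0.0612) or 4 (0.113).

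The AKAP with the highest mean was Akap7, a small anchor, in alpha cells, and Akap9, the large anchor of the Golgi and centrosome, in beta and delta cells (Akap11 in delta cells without delta sample 6). Akap7 was at 20.7, 48.5, 81.5, 22.3 and 50.2 FPKM in alpha samples, at 11.8, 95.2, 4.27 and 26.3 in beta samples and at 9.10 to 26.9 in delta samples. Akap9 was at 5.64, 1.33, 7.78, 51.8 and 46.1 FPKM in alpha samples, at 39.4, 75.9, 37.9 and 174 in beta samples and at 3.56 to 40.9 in delta samples. Neither was called, and the interval of beta minus alpha cells for Akap9 ran from 0.43 to 4.38 (limma, adjusted p = 0.130). With the replicate number as a block Akap9 was called, at 2.78 for beta minus alpha cells (adjusted p = 0.0217) and -2.42 for delta minus beta cells (adjusted p = 0.0263). Akap4 was listed at 0 in all samples.

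Within a cell type the samples of the 2 ribosomal sets did not overlap for 14 of the 39 genes in alpha cells and 14 in delta cells (35.9% each). That is near the 38.8% and 39.8% of all genes tested, and so not particular to these genes. In both cell types 7 of the 39 stood apart in the same direction (17.9%, beside 21.8% of all genes). Of these, Akap13, Akap17b, Akap9, Adcy9 and the Pde4d row ENSMUSG00000074661 were higher in the low set, and Prkar1a and Pde6d were lower. Akap9 was at 46.1 to 51.8 FPKM in the low-set alpha samples and at 1.33 to 7.78 in the high-set ones, and at 30.0 to 40.9 and 3.56 to 4.56 in delta samples. Across the 38 genes with an annotated transcript, the difference between the sets ran with the length of the longest transcript (Pearson r = 0.50 and a Spearman coefficient of 0.50 in alpha cells, 0.68 and 0.54 in delta cells). These are descriptions across genes that share the same libraries and are not independent. Transcript length thus moves with the values within a cell type, and its part in the differences between cell types was not tested.

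**Figure D5:**
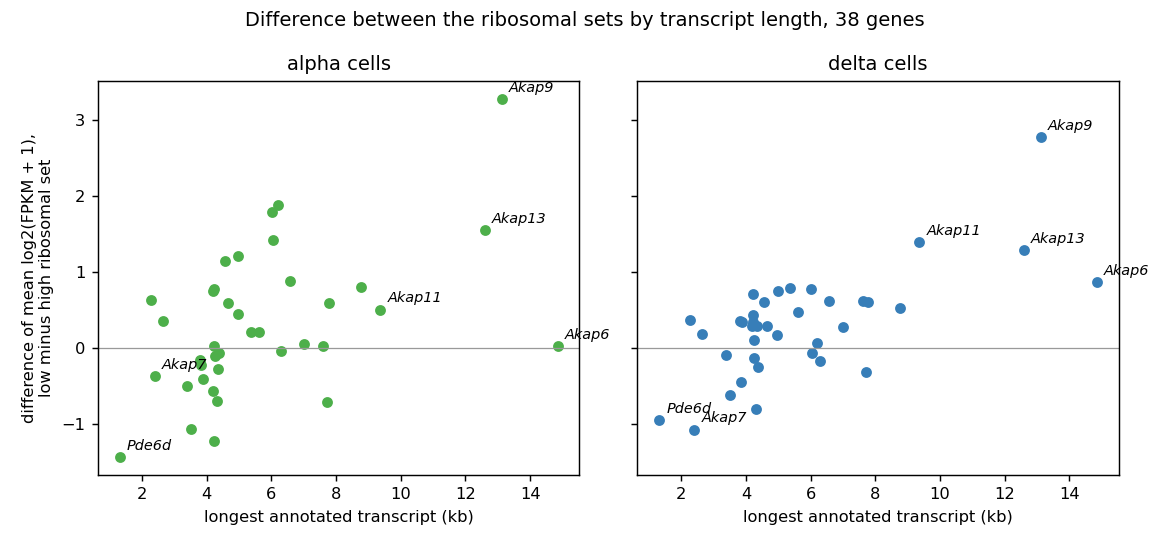
Each point is 1 of 38 genes, with the length of its longest GENCODE M21 transcript in kb on the x axis and, on the y axis, the mean log2(FPKM + 1) of low-set samples minus that of high-set samples, in alpha cells (2 against 3 samples) and delta cells (4 against 2). Pde6d lies low and Akap9 high in both panels.

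Of 52 other genes of the pathway, 40 passed the filter, and 16 were called in the F-test (40.0%, beside 16.0% of all genes). Gnal, Gucy1a3 and Gucy2c passed only through delta cells, where they are high, so these counts are descriptions. The list was also chosen with earlier results of these data known, so its share beside that of all genes is not a test. Beta against alpha cells called 3 higher and 2 lower (beside 2.84% and 4.82% of all genes), delta against alpha cells 9 higher and 1 lower (beside 5.33% and 1.48%), and delta against beta cells 9 higher and 2 lower (beside 11.7% and 2.99%). Over all genes too, more calls were higher than lower in delta cells. The stimulatory G protein subunit Gnas, which activates the cyclases, had a mean of 1310.1 ± 423.8 FPKM (SD, n = 5) in alpha, 228 ± 82.7 (n = 4) in beta and 1142 ± 148 (n = 6) in delta cells. The beta samples lay below all others, and the difference was -2.52 (SE 0.39) for beta minus alpha cells (limma, adjusted p = 5.89e-04) and 2.38 (SE 0.37) for delta minus beta cells (adjusted p = 4.44e-04). Gnai1, an inhibitory subunit, was at 46.0 ± 15.05 FPKM in alpha, 9.44 ± 10.9 in beta and 5.30 ± 1.53 in delta cells. It was lower than in alpha cells both in delta cells, without overlap (-2.86, SE 0.48; adjusted p = 9.82e-04), and in beta cells, with overlap (-2.61, SE 0.53; adjusted p = 0.00603, and 0.0665 in a fit of only those 2 cell types).

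Ppp1r1a, the phosphatase inhibitor that PKA activates, was at 62.5 ± 45.3 FPKM in beta cells, 12.6 ± 4.91 in delta cells and 3.23 ± 1.38 in alpha cells, without overlap between any pair of groups, and beta minus alpha cells was 3.74 (SE 0.49; limma, adjusted p = 1.29e-04). Its difference for delta minus alpha cells was 1.67 (SE 0.44; adjusted p = 0.0293), a call lost in 8 of 27 alternative settings, among them leaving out alpha sample 4 or any of delta samples 1 to 5 (1.39 to 1.69, adjusted p up to 0.0838). The exporter of cyclic nucleotides Abcc4 was at 2.89 ± 1.39 FPKM in beta and 3.19 ± 0.673 in delta cells against 0.262 ± 0.405 in alpha cells, again without overlap, with differences of 1.61 and 1.76 from alpha cells (adjusted p = 0.00342 and 4.81e-04), neither of them called in the low ribosomal set (0.0951 and 0.0731). The receptor guanylyl cyclase Npr1, which makes cyclic GMP, was at 2.18 ± 1.41 FPKM in beta and 0.0187 ± 0.0417 in alpha cells (1.5, SE 0.39; adjusted p = 0.0271), and this call was lost in 7 of 26 alternative settings, among them leaving out alpha samples 1 or 2 or beta samples 1, 2 or 4 (1.28 to 1.49, adjusted p up to 0.0952). Delta cells were above alpha cells without overlap for Ezr (2.08; adjusted p = 0.00459), Gnal (1.13; 0.0127), Rap2b (1.16; 0.0293) and Rap1gap2 (1.10; 0.0450). In the low ribosomal set Ezr and Gnal were not called (adjusted p = 0.0679 and 0.106), nor was Gnal with quantile normalization (0.0628).

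Above beta cells without overlap, delta cells had the soluble guanylyl cyclase subunits Gucy1a3 (1.49; limma, adjusted p = 0.00249) and Gucy1b3 (1.94; 0.00111), the receptor cyclases Gucy2c (1.08; 0.0311) and Npr2 (1.57; 0.0124), the pacemaker channel Hcn3 (1.05; 0.00941), and the Rap regulators and Rap GTPase Rap1gap (1.74; 0.00563), Rap1gap2 (1.38; 0.0104) and Rap2b (1.42; 0.00817). Of these, Gucy1a3 and Gucy2c passed the filter only through delta cells (beta means of 0.0540 and 0.805 FPKM against 2.08 and 2.97 in delta cells). A further soluble subunit, Gucy1a2, which passed only through alpha cells, was not called (0.49; 0.364). Ppp1r1a (-2.07; 0.00755) and the AKAP Sphkap (-1.92; 0.0452) were lower, again without overlap. Of the 26 called differences of pathway genes, 12 were kept under every alternative. The Rap1gap2 and Rap2b calls against alpha cells were lost in 17 of 27 and 10 of 26 alternative settings, and the Gucy2c and Sphkap calls against beta cells in 11 of 26 and 13 of 27. Rap1gap2 lost it without any 1 of alpha samples 1 to 4, beta samples 1 and 4 and all delta samples (adjusted p up to 0.120), and Rap2b without alpha samples 1 or 4 or delta samples 3 to 6 (up to 0.0801). Gucy2c lost it without beta samples 1 or 4 or delta samples 3 to 6 (up to 0.0796), and Sphkap without alpha samples 1 or 2 or any beta or delta sample (up to 0.147). Npr2 was not called without beta sample 4 (0.0504) or with the replicate number as a block (0.0658), and Hcn3 not with quantile normalization (0.0766).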

How the data were processed

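RNA of sorted mouse alpha (5), beta (4) and delta (6) cells was amplified, libraries were made with a kit that does not keep the strand, and single 50 nt reads were aligned to GRCm38 with TopHat. Cufflinks 2.2.1 values were deposited by the authors as FPKM per gene. The authors' own comparison used read counts, which were not used here. Here limma 3.58.1 (R 4.3.3, lmFit and eBayes with trend) was fitted to log2(FPKM + 1) with pseudocount 1 and 1 fit for the 15 samples. P-values were adjusted by Benjamini-Hochberg over 14405 genes with a mean above 1 FPKM in a cell type. Single genes were also compared by two-sided exact permutation tests (SciPy 1.17.1), unadjusted, whose smallest possible p is 0.0159, 0.00433 and 0.00952 for beta against alpha, delta against alpha and delta against beta cells. The fit was tested on simulated data. Read steps were sought in 5066 genes with 1 transcript. Gene models are from GENCODE M21.

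The genes described, the pathway list and the alternatives were chosen with earlier results of these data known. Named with values are genes called in a test, the highest gene of each family and cell type, all PKA subunits, Epac genes and tested cyclases, and called pathway genes whose groups do not overlap. Pde8b, Pde4b and Pde6d (plotted), the second Pde4d row, Akap12, Gucy1a2, Adcy1, Pde1a, Pde3a, Pde4a, Adcy5, Pde6b, Pde2a and the genes listed by ribosomal set were chosen after their values were seen, as was the limit of 50000 FPKM that separates the ribosomal sets. Protein sequences are not analysed here.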

Additional observations from a re-analysis of the deposited data

Results flagged for a closer look

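Of 117 groups examined (39 tested genes in 3 cell types), 5 held a sample far from the others by Dixon's criterion, where chance gives 5.85. Prkar2a was at 5.97 FPKM in alpha sample 5, against 2.04 to 2.68 in the other alpha samples. Adcy8 was at 0.0894 FPKM in alpha sample 5, against 0 to 0.0219. In beta sample 2, which belongs to the high ribosomal set, Pde8b was at 1.74 FPKM (0.0165 to 0.123 in the other beta samples) and Adcy2 at 0.0327 (the others are listed at 0). Pde7b was at 3.85 FPKM in delta sample 2, also of the high ribosomal set, below the 9.46 to 13.9 of the other delta samples. Why these samples differ was not tested.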

How the results depend on the processing

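Of the 16 called differences of the described genes, 10 kept direction and call under every alternative in which the gene was tested (both of Adcy2, Adcy8, Pde5a and the Pde4d row ENSMUSG00000021699, Adcy6 in delta against beta and Pde7b in delta against alpha cells). The other 6, given with their results, lost the call in 30 settings, and none reversed. For Adcy2 and Adcy8, which passed the filter only through delta cells, the kept calls are a description. Of 45 family shares above 10%, 4 moved by over 1.5 times on leaving out 1 sample: Adcy3 (16.7% to 7.50%) and Pde4b (13.3% to 8.08%) in alpha cells without alpha sample 3, Akap9 (18.9% to 11.7%) in alpha cells without alpha sample 4, and Akap7 (16.2% to 8.66%) in beta cells without beta sample 2. Some genes were called only under an alternative: 7 for beta against alpha cells (Adcy3, Adcy6, Akap12, Akap9, Pde7b, Pde8a and Rapgef4), 9 for delta against alpha cells (Akap12, Akap6, Pde1a, Pde3a, Pde4a, Pde6a, Pde8a, Pde8b and Rapgef3) and 11 for delta against beta cells (Adcy3, Akap6, Akap9, Pde2a, Pde4a, Pde6a, Pde6d, Pde7b, Prkaca, Prkar1b and Prkar2b).

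The F-test called 11 genes, and 6 with a filter of 5 FPKM. For beta against alpha cells the count of 5 became 3 without a filter, 3 with only the 2 cell types and 8 with median-ratio size factors. For delta against alpha cells the count of 3 became 5 without a filter, 1 with a filter of 5 FPKM, 5 with pseudocount 0.1, 6 with quantile normalization and 5 in the low ribosomal set, an alternative added after the data were seen. For delta against beta cells the count of 8 became 5 with a filter of 5 FPKM. Leaving out 1 sample gave 6 to 12, 2 to 7, 3 to 4 and 6 to 12 calls in that order. The F-test gave 6 without beta sample 1 or 4 and 7 without delta sample 4, and beta against alpha cells gave 2 without alpha sample 2, beta sample 1 or beta sample 4. A higher filter or fewer samples leaves fewer genes or samples to test, and otherwise the cause was not tested.

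Over all genes, 2301 were called in the F-test and 1450 with a filter of 5 FPKM. For beta against alpha cells 1104 became 2072 (size factors), 1970 (quantile) and 520 (only the 2 cell types), and 651 to 1698 on leaving out a sample (702 without alpha sample 2, 696, 1698 and 651 without beta samples 1, 2 and 4). For delta against alpha cells 981 became 518 (5 FPKM) and 629 (low ribosomal set), and for delta against beta cells 2114 became 1319 (5 FPKM). Size factors and quantile normalization shifted the median difference by 0.13 and 0.11, -0.12 and -0.17, and -0.28 and -0.30 in the 3 comparisons, and moved the share of calls that were higher from 37.0% to 52.7% and 47.6%, from 78.3% to 67.9% and 56.8%, and from 79.6% to 51.5% and 50.9%. The 16 called differences kept their direction under both.

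Of the other pathway genes the F-test called 16, and 7 with a filter of 5 FPKM. With that filter the pairwise counts of 5, 10 and 11 became 3, 3 and 6. Beta against alpha cells gave 8 with pseudocount 0.1, the low ribosomal set gave 4 for delta against alpha and 20 for delta against beta cells, and leaving out a sample gave 6 to 12 for delta against alpha cells (6 without delta samples 3, 4 or 5).

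With the replicate number as a replicate block, the described genes gave 9, 5, 3 and 8 calls and all genes 2198, 1227, 831 and 2001. Over 13 same-numbered pairs the correlation of deviations was 0.08 on average (-0.15 to 0.28). Of these, 5 were above 0.1, and 4 samples correlated best with their own number. Delta cells came from another line of mice, so only beta and alpha samples can share animals. Their same-numbered pairs were at -0.04, 0.27, -0.15 and 0.07 for numbers 1 to 4. So few pairs cannot decide whether the numbers pair these samples. Depth could be read in 5 samples only, which limits what can be said of genes listed at 0.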
